A study of Mus musculus with 21 samples.

Results

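The genes described here are 49 genes of the sarcomere and of the contractile apparatus of skeletal muscle, taken as a fixed list by name from the 21900 protein-coding genes of the GRCm38.p6 gene table, which holds 49997 genes in all. For each gene, every H3K4me3 or PSME3 peak that reached within 1 kb of the gene span was collected from each deposited list. All 49 symbols were found in the table. The list was not chosen on the peaks, but it was drawn up with earlier results of these data in view. The measure used throughout is the covered length, the number of bases of the gene span with 1 kb on either side that lie inside a peak.

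The cells were C2C12, an immortalized line of mouse myoblasts that leaves the cell cycle and fuses into myotubes when serum is withdrawn. Cleavage under targets and release using nuclease (CUT&RUN), which releases and sequences the DNA around an antibody-bound protein, was performed with antibodies to PSME3, a proteasome activator, and to H3K4me3. Cycling cells, in 20% FBS, were frozen in 10% DMSO without fixation and gave 3 replicates for each antibody. Day 2 cells were collected 48 h after a change to 2% horse serum and gave 1 library for each antibody in each of 4 preparations, assayed fresh or after freezing, and native or crosslinked for 5 min in 0.1% formaldehyde. Day 2 values are given below in the order fresh crosslinked, fresh native, frozen crosslinked and frozen native, and cycling values in the order of replicates 1, 2 and 3. The frozen native preparation is the 1 day 2 library prepared in the same way as the cycling cells. The 4 day 2 libraries differ in preparation, so their spread holds preparation as well as sampling, and nothing in the labels ties them to separate cultures.

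The sarcomere is the repeating contractile unit of striated muscle, in which thick filaments of myosin pull on thin filaments of actin anchored at the Z-disc. Calcium binding to the troponin complex moves tropomyosin along the thin filament and exposes actin to myosin, and titin and nebulin act as molecular scaffolds for both filament systems. Myoblasts make little of this machinery until they differentiate, when myogenic regulators of the MyoD family, which bind E-boxes, and MEF2 factors switch its genes on. H3K4me3, trimethylation of lysine 4 on histone H3, marks the promoters of active genes.

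The 4 promoters shown here belong to the genes whose H3K4me3 grew most between the stages among those with a start site in the reference, a myosin light chain (Myl1), the embryonic myosin heavy chain (Myh3), a kelch-family protein of the sarcomere (Klhl41) and a myosin binding protein (Mybph). Each is the 250 bases before the RefSeq start site on the gene's own strand in GRCm38.p6. Myl1 lies at chr1:66945057-66945306 on the minus strand, Myh3 at chr11:67078050-67078299, Klhl41 at chr2:69669870-69670119 and Mybph at chr1:134193198-134193447, these last on the plus strand. Capitals mark matches to the E-box CANNTG, the TATA box TATAAA, the MEF2 motif in its strict palindromic form and the CArG box. A match is a description of the letters and does not show that a factor binds.
Myl1 promoter: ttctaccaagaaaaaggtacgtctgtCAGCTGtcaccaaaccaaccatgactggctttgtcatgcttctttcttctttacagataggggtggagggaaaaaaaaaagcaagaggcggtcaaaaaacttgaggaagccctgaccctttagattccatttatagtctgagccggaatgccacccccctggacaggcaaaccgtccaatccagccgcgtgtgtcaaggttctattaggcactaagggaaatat
Myh3 promoter: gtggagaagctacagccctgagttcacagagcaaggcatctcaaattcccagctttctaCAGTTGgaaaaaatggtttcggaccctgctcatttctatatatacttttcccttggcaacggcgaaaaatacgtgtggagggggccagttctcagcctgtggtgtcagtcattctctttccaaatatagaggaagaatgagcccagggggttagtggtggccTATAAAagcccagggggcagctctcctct
Klhl41 promoter: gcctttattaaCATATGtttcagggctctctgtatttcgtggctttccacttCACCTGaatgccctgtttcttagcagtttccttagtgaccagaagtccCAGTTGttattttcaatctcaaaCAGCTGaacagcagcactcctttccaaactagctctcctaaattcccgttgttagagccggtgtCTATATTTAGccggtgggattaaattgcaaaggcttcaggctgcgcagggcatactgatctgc
Mybph promoter: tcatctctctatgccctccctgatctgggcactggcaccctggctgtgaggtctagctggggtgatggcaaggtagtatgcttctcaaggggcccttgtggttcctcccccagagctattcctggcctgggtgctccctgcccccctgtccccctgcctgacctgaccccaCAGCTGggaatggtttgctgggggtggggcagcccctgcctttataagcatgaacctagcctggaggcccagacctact

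Myl1 held a single E-box, CAGCTG, from base -224 to -219 counted from the start site. Myh3 held the E-box CAGTTG from -191 to -186 and a TATA box from -29 to -24. Klhl41 held 4 E-boxes between -239 and -122 and a MEF2 motif, CTATATTTAG, from -63 to -54. The single E-box of Mybph, CAGCTG, lay from -79 to -74.

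H3K4me3 was found at more of the 49 genes on day 2 than in cycling cells, whereas the share of all protein-coding genes with a peak was slightly lower. A peak was present at 15, 27 and 17 of the genes in the cycling replicates, a mean of 19.7 ± 6.43 (SD, n = 3). On day 2 it was present at 36, 35, 37 and 36 genes, a mean of 36.0 ± 0.816 (SD, n = 4). The groups did not overlap. Over all protein-coding genes the share moved the other way, from 58.8, 63.6 and 59.1% in cycling cells to 57.5, 54.5, 57.6 and 56.9% on day 2, while that of the 49 genes went from 30.6, 55.1 and 34.7% to 73.5, 71.4, 75.5 and 73.5%. With 3 against 4 libraries a 2-sided exact permutation test cannot give a p below 0.0571, so no comparison of the stages could reach 0.05.

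**Figure D1:**
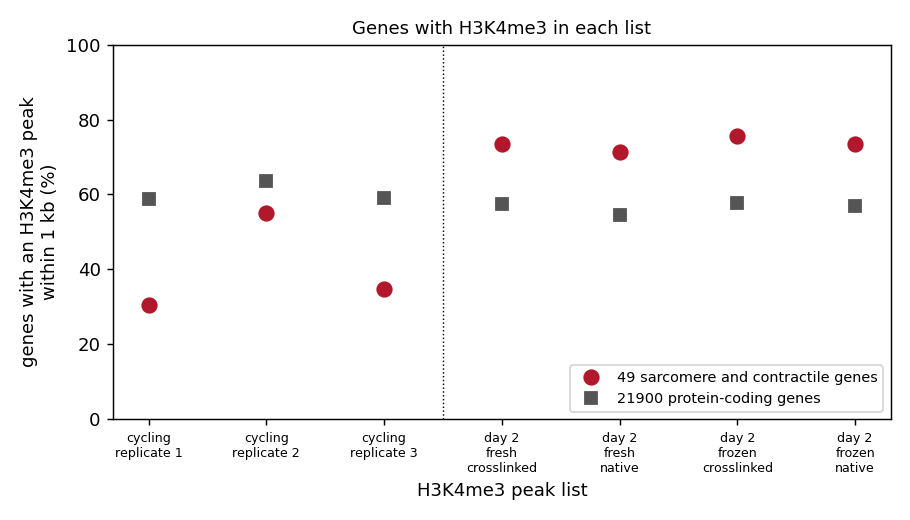
Percent of genes with an H3K4me3 peak within 1 kb of the gene span (y axis) in each of the 7 lists (x axis), with red circles for the 49 sarcomere and contractile genes and grey squares for the 21900 protein-coding genes. The circles lie below the squares in the 3 cycling lists, at 30.6 to 55.1%, and above them in the 4 day 2 lists, at 71.4 to 75.5%.

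The cycling lists differed among themselves. Replicate 2 held 40999 H3K4me3 peaks with a median width of 662 bp, against 18077 and 19365 peaks of 1781 and 1784 bp in replicates 1 and 3, and it alone carried a short peak at many of the 49 genes. The day 2 lists held 14372 to 20245 peaks. Since none of them gives reads per peak, depth could not be read from the files and no interval for counting error can be given. H3K4me3 lay at all 8 myoblast markers in every list, at 6 of 6 markers of differentiating myocytes in each day 2 list (Ckm, one of the 6, and Des, a myoblast marker, are also among the 49 genes). Of 4 markers each for endothelium, neurons, liver and blood, the number with a peak in every cycling list was 1 of each, and with a peak in all 4 day 2 lists 0, 0, 0 and 1. Kdr (endothelium) and Apoa1 (liver) had a peak in every cycling list and none on day 2, and Syt1 (neurons) was narrower on day 2. Of 5 fibroblast markers 3 had a peak in all 4 day 2 lists, 1 (Dcn) was wider and 1 narrower, and their median change in the covered length defined above was 0.0 bp.

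A gene was called wider when each day 2 list covered more bases than each cycling list, narrower in the opposite case, gained when each day 2 list and no cycling list had a peak, and lost in the reverse. Of the 49 genes, 23 (46.9%) were wider on day 2, where 0.671% of protein-coding genes and 0.346% of all genes were. A peak was gained at 11 (22.4%), against 0.146% of protein-coding genes and 0.092% of all genes. The 11 made up 34.4% of the 32 protein-coding genes that gained a peak, and the 23 made up 15.6% of the 147 that were wider. Only Tpm1 was narrower, 1 of the 49, whereas 23.8% of protein-coding genes and 13.5% of all genes were narrower. With as many peaks taken from each list as the shortest holds, 20 of the 49 gained a peak, against 0.292% of protein-coding genes. Without cycling replicate 2, 17 of the 49 gained a peak, against 0.247% of protein-coding genes, and without cycling replicate 1, 5 were narrower, against 32.6%. None of the 49 lost its peaks, and 0.973% of protein-coding genes and 0.886% of all genes did. These calls need groups that do not overlap, and each of the 24 called genes has the smallest p of the exact permutation test, 0.0571.

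The median change in covered length from cycling cells to day 2 was 945 bp over the 49 genes and -205.4 bp over protein-coding genes. Taken against each cycling list alone, the median over the 49 genes varied with an SD of 367.6 bp. Its values under other settings are given at the end. The day 2 mean was above the cycling mean for 29 of the 49 (59.2%) and below it for 11 (22.4%). Over protein-coding genes it was above for 5.5% and below for 60.1%. The fall over all genes depended on the scale of the lists. When the covered lengths were divided by the list's own median, 6.59% of protein-coding genes were wider and 8.69% narrower, and of the 49 genes 28 were wider and 0 narrower. With the frozen native library as the only day 2 list, 27 of the 49 were wider, against 4.19% of protein-coding genes.

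**Figure D2:**
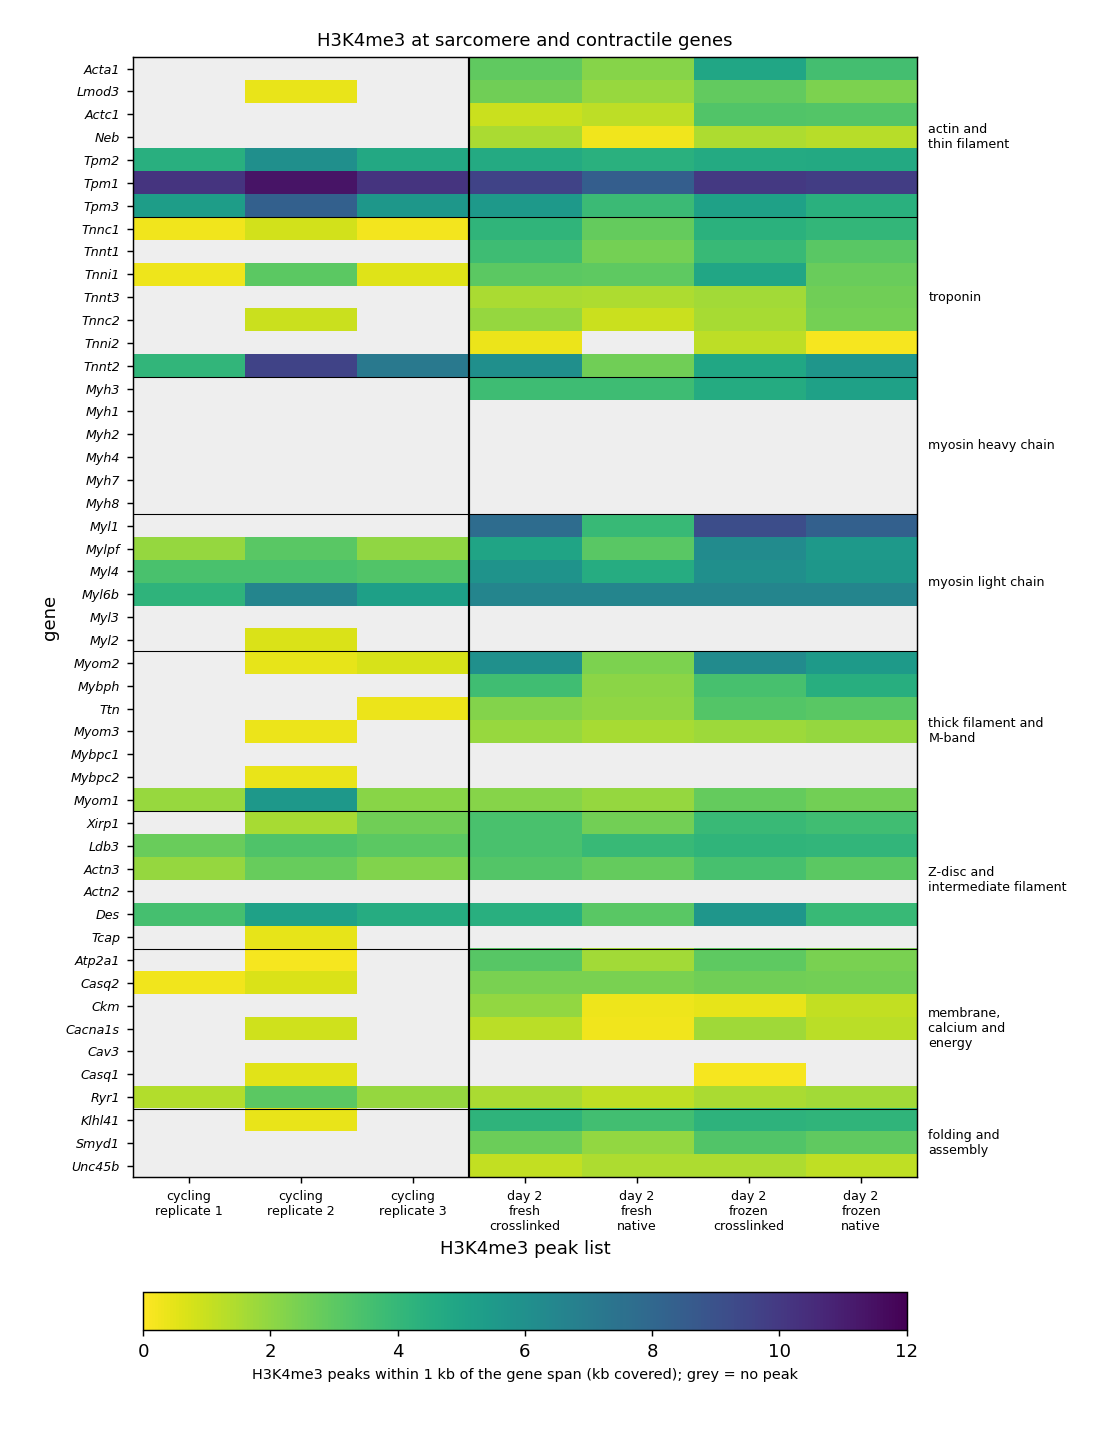
Covered H3K4me3 length in kb (colour) at each of the 49 genes (rows, grouped by role) in the 3 cycling and 4 day 2 lists (columns), with grey for no peak. The rows of the 11 gained genes are grey left of the line and coloured right of it. The tropomyosins are coloured on both sides, with Tpm1 the darkest, and 5 of the 6 myosin heavy chains are grey throughout.

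Of the 7 genes of the thin filament, 3 gained a peak, 4 were wider and 1 was narrower. Acta1 (chr8:123891758-123894775), which encodes skeletal muscle actin, had no peak in the cycling lists and 2931, 2158, 4878 and 3576 bp covered on day 2, a mean of 3386 ± 1151 bp. Actc1, the cardiac actin that embryonic skeletal muscle also uses, had none in cycling cells and 978, 1179, 3243 and 3203 bp on day 2. The frozen preparations covered more of Actc1 than the fresh ones, and its call ended at a q-value of at most 0.01 and with as many peaks as in the shortest list. Neb, which encodes nebulin, a giant protein that runs along the thin filament, had no peak in any cycling replicate and 1540, 245, 1477 and 1306 bp on day 2, with the least in the fresh native library. The call for Neb ended at a q-value of at most 0.01, and also with the pooled cycling list, which held a peak of 422 bp there. Lmod3, a nucleator of actin filaments, had 389 bp in cycling replicate 2, no peak in the others, and 2598, 1829, 2868 and 2369 bp on day 2.

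The tropomyosins, which lie along the actin filament, were marked at both stages. Tpm1 had 10214, 11344 and 10212 bp covered in cycling cells and 9566, 8429, 9995 and 9798 bp on day 2, and was the most widely covered of the 49 genes. Its mean fell by 1143 bp, from 10590 ± 653 (SD, n = 3) to 9447 ± 701 bp (SD, n = 4), but the change was 946.3 bp upward when each list was scaled by its median. Tpm2 had 4440, 6003 and 4775 bp in cycling cells and 4668, 4360, 4674 and 4723 bp on day 2, and its groups overlapped. Tpm3 had 5301, 8323 and 5668 bp and then 5535, 3835, 5120 and 4385 bp, also with an overlap. Des, which encodes the muscle intermediate filament protein desmin and is already made by myoblasts, had a day 2 mean of 4280 ± 1097 bp beside 4407 ± 815 bp in cycling cells.

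All 7 troponin genes had a peak in at least 1 day 2 list, and 4 of them were wider. Tnnt1, the slow troponin T that binds tropomyosin, went from no peak to 3727, 2492, 3911 and 3064 bp. Tnnt3, the fast troponin T, went from no peak to 1526, 1475, 1650 and 2600 bp. Neither gene had a peak in any of the 3 cycling lists. With 5 kb around the gene span Tnnt1 was wider but no longer gained. Tnnc2, the fast calcium-binding subunit, had 969 bp in cycling replicate 2 alone and 1890, 984, 1547 and 2507 bp on day 2, so the lowest day 2 value was close to the highest cycling value, and the call ended with 5 kb around the gene span. Tnni2, the fast inhibitory subunit, had no cycling peak and 356, 0, 1193 and 183 bp on day 2, which misses the call through the fresh native list.

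Tnnc1, the slow and cardiac calcium-binding subunit, had 257, 813 and 229 bp covered in cycling cells and 4127, 2839, 4314 and 4077 bp on day 2. In cycling replicate 1 the peak at Tnnc1 ran from 3922 to 744 bases before its start site and lay within 1 kb of the neighbouring gene Nisch. In the frozen native day 2 list the peak also began on the Nisch side, 3798 bases before the start site, but ran on across the start to 3076 bases after it. The enrichment of that peak cannot be divided between the 2 genes.

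Tnnt2 and Tnni1, chosen after their values were seen, were not called over the gene span, but their peaks differed in position between the stages. Tnnt2, the cardiac troponin T that embryonic skeletal muscle makes, had 4098, 9587 and 7141 bp covered in cycling cells and 6041, 2585, 4867 and 5713 bp on day 2. Its cycling peaks began 7199, 6512 and 7160 bases after the nearest annotated start site and none reached a start. On day 2 a further peak was found there in every list, from 8 bases before a start site to 2931 after it in the frozen native list, beside a peak 7802 to 10574 bases downstream. Tnni1, the slow inhibitory subunit, had 308, 3029 and 596 bp in cycling cells, all of it at least 4097 bases before the RefSeq start site and, in replicates 2 and 3, partly at the outer end of the gene span, and 3044, 2962, 4894 and 2749 bp on day 2, with a peak over the start site in each list. Counted within 1 kb of the start site alone, both genes gained a peak on day 2, with mean gains of 1613.8 bp for Tnnt2 and 1620.0 bp for Tnni1.

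Among the 6 sarcomeric myosin heavy chains, the motor subunits of the thick filament, Myh3 was the 1 gene with a peak. Myh3 (chr11:67078273-67102291) encodes the embryonic isoform and had no peak in cycling cells, then 3726, 3726, 4625 and 5131 bp on day 2, a mean of 4302 ± 696 bp. The frozen native peak ran from 54 bases before the start site to 5076 after it, over the TATA box and downstream of the E-box printed above. In the fresh crosslinked, fresh native and frozen crosslinked lists the peak began 122, 370 and 52 bases after the start site. In those lists it did not cover the TATA box. Myh2, Myh1, Myh4 and Myh8, the fast and perinatal isoforms that follow Myh3 on chromosome 11, had no peak in any H3K4me3 or PSME3 list, and neither had Myh7, the slow isoform, on chromosome 14. From 1 kb past the end of Myh3 to 1 kb past the end of Myh8, chr11:67103292-67309634, no list held a peak. The absence is of called peaks at an unknown depth and does not show that the mark was absent.

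Of the 6 myosin light chains, which stabilize and tune the myosin head, 2 were wider, 1 of them gained. Myl1 (chr1:66924295-66947932), the fast essential light chain, had the largest change of the 49 genes, from no peak to 7778, 3937, 9186 and 8300 bp, a mean of 7300 ± 2316 bp. In the frozen native list Myl1 carried a peak of 2638 bp over its annotated start site and a second, wider one of 5662 bp that began 7170 bases downstream. Myl4, the embryonic and atrial light chain, had 3464, 3423 and 3277 bp in cycling cells and 5825, 4549, 6038 and 5653 bp on day 2. In every list its peak over the start site also lay within 1 kb of the neighbouring gene Cdc27. The gain at Myl4 lay away from its start site, since within 1 kb of the start the change was -154.1 bp. Mylpf, the fast regulatory light chain, had 1909, 3088 and 1982 bp and then 4980, 3056, 6191 and 5562 bp, and its call failed only because the fresh native value lay below that of cycling replicate 2. In every list each peak at Mylpf also lay within 1 kb of another protein-coding gene, Tbc1d10b or Septin1. In cycling replicates 1 and 3 the peak ended 1852 and 1779 bases before the Mylpf start site, on the Tbc1d10b side. Within 1 kb of its start site Mylpf was wider, by 1275.7 bp, and the peaks there also lay within 1 kb of Septin1. Myl6b had a peak in every list, covering 4214, 6529 and 5173 bp in cycling cells and 6529 bp, its whole window, in each day 2 list, and shared that peak with another gene. Myl2 had one in cycling replicate 2 alone, and Myl3 had none in any list.

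In the thick filament and M-band group of 7 genes, 4 were wider. Mybph, myosin binding protein H, went from no peak to 3675, 2108, 3498 and 4499 bp, a call that ended at a q-value of at most 0.01. Ttn, which encodes titin, had 370 bp in cycling replicate 3 alone and 2205, 2008, 3229 and 3078 bp on day 2. Ttn spans chr2:76703980-76982557, and the frozen native peak covered its start, from 758 bases before the start site to 2319 after it. Myom2, which crosslinks myosin at the M-band, had 0, 451 and 736 bp in cycling cells and 5997, 2363, 6225 and 5481 bp on day 2. Myom3 had 350 bp in cycling replicate 2 alone and 1838, 1564, 1762 and 1880 bp on day 2. Myom1 had 1834, 5606 and 2134 bp in cycling cells and 2157, 1882, 2814 and 2541 bp on day 2, with an overlap. Its widest peak lay at the neighbouring gene Myl12a in every list, while a peak covered the Myom1 start site in 0 of 3 cycling and 3 of 4 day 2 lists. Within 1 kb of the start site Myom1 was wider on day 2, by 820.5 bp.

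Of the 6 Z-disc and intermediate filament genes, 2 were wider. Actn3, the alpha-actinin of fast fibers, had 1902, 2805 and 2259 bp in cycling cells and 3200, 2820, 3511 and 3019 bp on day 2, and in every list its peaks also lay within 1 kb of another protein-coding gene. The lowest day 2 value was 2820 bp and its highest cycling value 2805 bp, and the call ended with 5 kb around the gene span and with the widest peak alone. Ldb3, a PDZ-LIM protein that binds alpha-actinin, had 2750, 3323 and 3011 bp and then 3425, 3911, 4156 and 4092 bp, a call that ended within 1 kb of the start site. Xirp1, an actin-binding protein of developing muscle, had 0, 1586 and 2609 bp and then 3427, 2546, 3855 and 3671 bp, which overlap. Tcap, the titin cap, had 441 bp in cycling replicate 2 and no day 2 peak, and Actn2 had no peak in any list.

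Of the 7 genes for membrane, calcium handling and energy supply, 3 were wider. Atp2a1, the fast sarcoplasmic reticulum calcium pump, had 163 bp in cycling replicate 2 alone and 3101, 1646, 2984 and 2434 bp on day 2. Casq2, a calcium-storage protein of the reticulum, had 259, 679 and 0 bp and then 2426, 2416, 2607 and 2568 bp, a narrow range across the preparations. Ckm, the muscle creatine kinase, gained peaks of 1955, 317, 423 and 1085 bp, the smallest mean gain of the 11. The pooled cycling list held a peak of 634 bp near the 3' end of Ckm, 10004 bases after its start site, although none of the replicate lists did, and the call ended when that list was used. Cacna1s, the voltage sensor for excitation-contraction coupling, had 864 bp in cycling replicate 2 alone and 1233, 242, 1732 and 1252 bp on day 2, and was not called because the fresh native value lay below that of cycling replicate 2. Ryr1, the calcium release channel, had a peak in every list, of 1378 to 3010 bp in all in cycling cells and 1142 to 1653 bp on day 2, Casq1 in 1 list of each stage, and Cav3 in none.

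The 3 genes for folding and assembly of the sarcomere were all wider. Smyd1, a methyltransferase that binds myosin during assembly, gained 2693, 1959, 3253 and 2924 bp. Unc45b, the muscle myosin chaperone, gained 1122, 1498, 1467 and 1148 bp, but with 5 kb around the gene span it was wider and no longer gained. Klhl41 had 409 bp in cycling replicate 2 alone and 4192, 3610, 4223 and 4133 bp on day 2, a mean of 4040 ± 289 bp. The Klhl41 cycling peak lay inside the gene, away from the promoter printed above, and every day 2 list had a peak within 1 kb of the start.

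**Figure D3:**
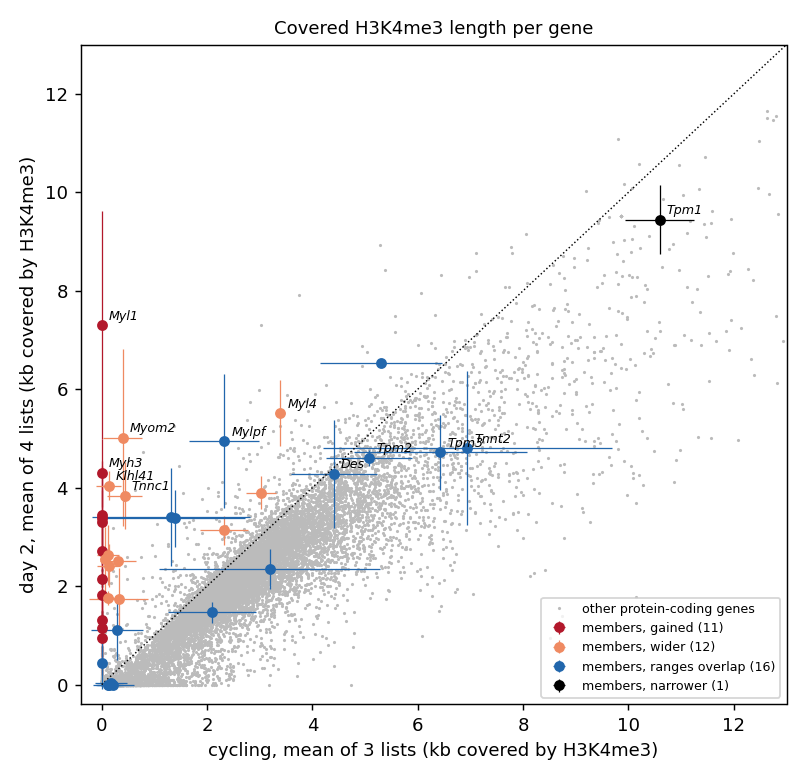
Covered H3K4me3 length per gene in kb, the mean of the 3 cycling lists (x axis) against the mean of the 4 day 2 lists (y axis), with error bars of 1 SD for the 49 genes and grey points for other protein-coding genes; genes beyond the axes are not drawn. The 11 gained genes (red) stand on the y axis, up to Myl1 at 7300 bp, while most grey points lie below the dotted line of equal length.

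By isoform class, 3 of the 5 genes that are embryonic or shared with heart development were wider (Myh3, Myl4 and Actc1). So were 5 of the 12 adult fast genes and 3 of the 8 slow genes, where 0.671% of protein-coding genes were. No peak was found in any list at 1, 3 and 2 genes of these classes. A peak in at least 1 list was found at 40 of the 49 genes (81.6%) and at 14379 of the 21900 protein-coding genes. The 9 genes without a peak in any list were Actn2, Myh1, Myh2, Myh4, Myh7, Myh8, Myl3, Mybpc1 and Cav3. The 14 with a peak in each cycling list were Actn3, Myl4, Myl6b, Mylpf, Tnnt2, Tnni1, Tnnc1, Tpm1, Tpm2, Tpm3, Des, Myom1, Ldb3 and Ryr1. Neither wider nor narrower were 16 marked genes, of which Myl2, Mybpc2 and Tcap had a peak in cycling replicate 2 and in no other list.

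The new peaks were weakly enriched. Fold enrichment, the ratio of signal to the background that the peak caller estimated, was compared within a list by percentile among the protein-coding genes with a peak there. The 19 genes that were wider and lacked a peak in at least 1 cycling list had median percentiles of 11.4, 6.9, 10.3 and 7.9 in the 4 day 2 lists, and none was above 17.4. The 14 genes with a peak in each cycling list had median percentiles of 55.2, 57.9, 44.9 and 49.0 in the same lists. At 6 of these 14 (Actn3, Myl4, Myl6b, Mylpf, Tnnc1 and Myom1) the strongest peak also lay within 1 kb of another protein-coding gene, and the medians over the other 8 were 35.5, 31.4, 31.1 and 38.6. In the frozen native list the median fold enrichment was 5.13 for the 19 genes, 15.82 for the 14 genes and 15.97 for all marked protein-coding genes. Myl1 was at percentile 7.7 with 8300 bp, Myh3 at 5.8 with 5131 bp and Actc1 at 3.1 with 3203 bp, beside Tpm1 at 62.4 with 9798 bp.

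**Figure D4:**
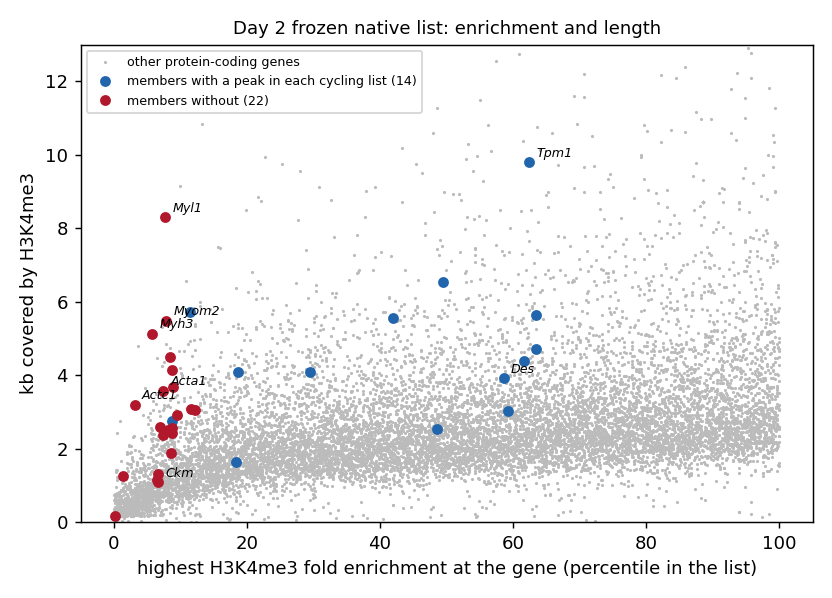
Covered H3K4me3 length in kb (y axis) against the highest fold enrichment at the gene, as a percentile among marked protein-coding genes (x axis), in the day 2 frozen native list, with blue for the 14 genes of the set marked in each cycling list, red for the 22 others and grey for other protein-coding genes. The red points crowd at low percentiles, and the blue points spread over higher ones.

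The peaks lay mainly downstream of the start sites. A RefSeq start site was at hand for 41 of the 49 genes, and it was covered in 8, 10 and 8 of them in cycling cells (19.5, 24.4 and 19.5%) and in 25, 16, 27 and 24 on day 2 (61.0, 39.0, 65.9 and 58.5%). Over protein-coding genes the shares were 53.2, 54.3 and 53.4% and then 49.6, 47.5, 50.9 and 51.7%. Within 5 kb of the start, the median share of covered bases that lay downstream was 85.0, 81.3, 84.7 and 82.0% at start sites of the 49 genes on day 2, and 64.8, 66.1, 64.9 and 66.1% at those of other genes. It was 82.5, 69.1 and 80.9% at start sites of the 49 genes in cycling cells, above the 65.5, 62.5 and 64.6% of other genes in the same lists. These medians are over the start sites that lay under a peak, 9, 11 and 9 in cycling cells and 28, 19, 29 and 27 on day 2. In the frozen native list the peak of Tnnt1 began 7 bases after the start and ran to 3070, that of Casq2 from 4 to 2571, and that of Klhl41 from 129 bases before it to 4003 after.

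**Figure D5:**
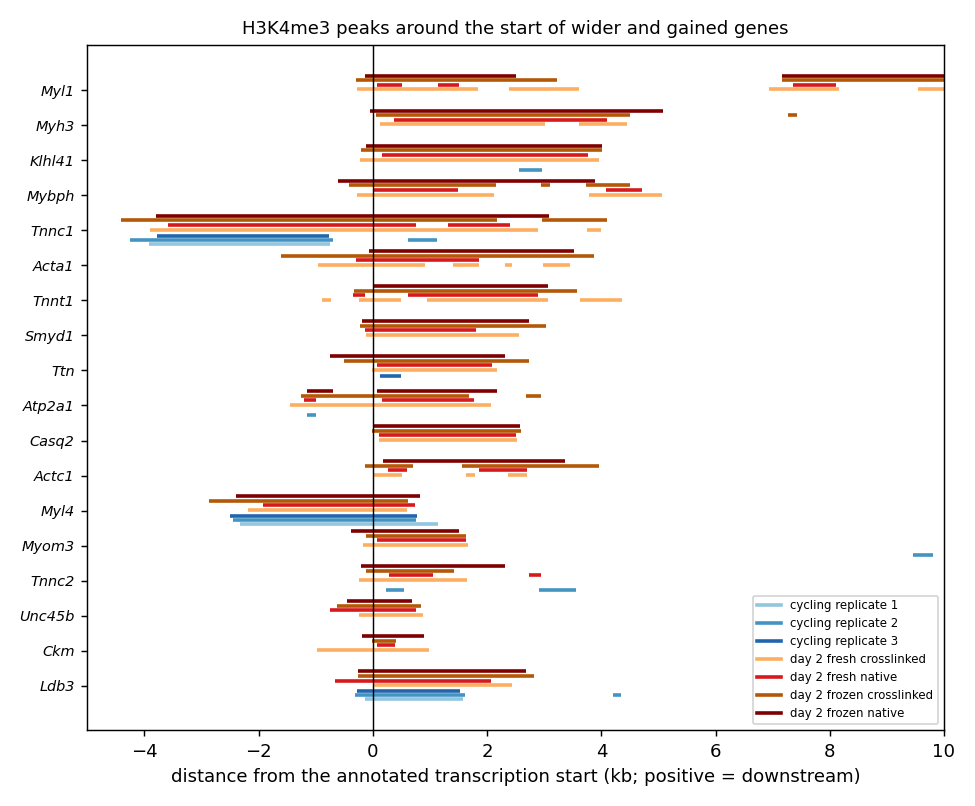
Extent of each H3K4me3 peak (bars) in kb from the annotated start site (x axis, positive downstream) at the 18 wider or gained genes with a start site (rows), in blues for the cycling replicates and yellow to dark red for the 4 day 2 preparations; peaks are drawn from 5 kb before to 10 kb after the start. Most day 2 bars start near 0 and extend to the right, and the wide blue bars at Tnnc1 lie before the start.

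The promoters of the 41 genes were poor in CpG. The ratio of observed to expected CpG in the 250 bases before the start site had a median of 0.257, against 0.53 over 17492 protein-coding genes, and was 0.23 for the 9 gained genes with a start site, 0.323 for the 13 marked in each cycling list and 0.371 for the 9 without a peak. The E-box CANNTG occurred in 34 (82.9%) of the 41, and in 66.3% of the promoters of protein-coding genes. The E-box CAGCTG, contained in CANNTG and read from it as a subset, occurred in 18 (43.9%) against 13.8%. It was present before 6 of the 18 wider genes (Acta1, Myl1, Mybph, Ckm, Atp2a1 and Klhl41), 6 of the 13 marked in each cycling list and 3 of the 9 without a peak. The CArG box, bound by serum response factor, occurred in 6 (14.6%) against 1.6%, at Acta1, Actc1, Myh4, Myl3, Myom1 and Ldb3. The MEF2 motif occurred in 2 (4.88%) against 0.555%, at Ttn and Klhl41, and TATAAA in 5 (12.2%) against 9.11%. The patterns other than TATAAA are palindromic, so that a match holds for both strands, and TATAAA was read on the gene's strand alone.

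PSME3 peaks were looked for in the same way. In the pooled cycling list a peak lay at 6 (12.2%), against 21.9% of protein-coding genes and 11.8% of all genes. The replicate lists, with 1200, 776 and 3070 peaks, marked 2, 2 and 5 of the 49 (4.08, 4.08 and 10.2%), beside 4.56, 3.6 and 13.4% of protein-coding genes. With pooled peaks found in at least 2 replicates, 3 of the 49 were marked, against 3.96% of protein-coding genes, so the lower share in the pooled list did not hold there, and 3 of the 6 pooled peaks (at Actn3, Mylpf and Myom1) were found in replicate 1 or 2. At Mylpf the pooled peak, chr7:127208777-127209387, had a fold enrichment of 3.67 and was the 1 found in all 3 replicate lists. It lay 2221 bases before the Mylpf start site and within 1 kb of Tbc1d10b. The pooled peak at Actn3, chr19:4878167-4879086, had a fold enrichment of 2.93 and lay beside Zdhhc24, and that at Myom1, chr17:71002242-71002832, one of 3.60, beside Myl12a and 16725 bases from the Myom1 start site. So 3 of the 6 were also peaks of a neighbouring gene.

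The tropomyosin peaks of PSME3 lay at the genes' own starts. At Tpm2 the pooled peak, chr4:43523323-43523538, ran from 16 to 231 bases after the start site with a fold enrichment of 3.08 and was found in no replicate list. At Tpm3 it was chr3:90079533-90079849, from 12 to 328 bases after a start site, with a fold enrichment of 2.90, and replicate 3 held it too. The sixth peak, chr2:52319236-52319612, lay inside Neb with a fold enrichment of 2.97 and was found in replicate 3. All 6 overlapped a pooled H3K4me3 peak, of 3475 bp at Actn3, 4712 bp at Mylpf, 8223 bp at Myom1, 5946 bp at Tpm2, 8493 bp at Tpm3 and 422 bp at Neb. The study reports that most of its PSME3 peaks in cycling cells were also positive for H3K4me3. The share over all PSME3 peaks was not computed here, so the overlap is not read as particular to these genes. Of the 11 genes that gained H3K4me3 on day 2, Neb had a PSME3 peak in the pooled cycling list and the others had none. The share over protein-coding genes was 21.9%. The 11 were picked for lacking H3K4me3 peaks in the cycling replicates, and the 6 PSME3 peaks all overlapped H3K4me3. A low count of PSME3 among the 11 was thus favoured by the choice and is not read as a result. Neb was neither gained nor wider when the pooled cycling H3K4me3 list stood for the cycling stage. On day 2 PSME3 peaks were at 0 of the 49 genes in each of the 4 lists, which held 18, 23, 77 and 186 peaks in all and marked 0.0365, 0.0457, 0.361 and 0.909% of protein-coding genes.

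A second list held 50 other sarcomere, Z-disc and excitation-contraction genes. Of these, 4 gained a peak and 9 were wider, where 0.146% and 0.671% of protein-coding genes were, 5 were narrower (23.8% of protein-coding genes) and 11 had no peak. Their median change was 0.0 bp, and the difference from the 49 genes was not tested. Myoz2, Pdlim3, Trim63, Trim55, Lmod2, Pgam2, Chrnd and Chrng were among the wider genes. Lmod2, a relative of Lmod3, gained 3946, 2764, 3098 and 3290 bp. Among 25 cytoskeletal and smooth muscle relatives of the 49 genes, such as the non-muscle actins, myosins and actinins, 0 were wider and 5 narrower (Actg2, Actn4, Mylk, Vim and Unc45a). The 5 narrower are read beside 23.8% of protein-coding genes. Of the 25 relatives 22 had a peak in each cycling list, 8 had a PSME3 peak in the pooled cycling list, where 21.9% of protein-coding genes had one, and the median change was -470.2 bp. These counts for the relatives were not recomputed after scaling the lists.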

How the data were processed

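CUT&RUN peak lists from 14 of 21 libraries of C2C12 cells were used, with 2 pooled lists of cycling cells (16 lists). The 7 IgG libraries were not analysed here. Per the submitters' processing notes, reads were trimmed with Trim Galore, aligned to mm10 with Bowtie2 and called with MACS2. Versions, options and the control library are not given in the sources used here. For each peak the authors deposited a fold enrichment, a ratio of signal to the background estimated by MACS2, together with a p-value and a q-value, each as −log10. The q-values in all lists were under 0.1. Reads per peak are not part of these lists. Depth is therefore unknown, and deeper sequencing can give more and wider peaks.

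Genes were spans of GRCm38.p6 and promoters came from the RefSeq table of that build, which held 41 of the 49 genes. Covered length, peak number and highest fold enrichment were computed per gene within 1 kb of its span with scipy 1.17.1, pandas 2.3.3 and numpy 2.4.6 under Python 3.11.15, plots were drawn with matplotlib 3.10.9, and an overlap was at least 1 bp. The code for the calls, which require groups that do not overlap, was tested on simulated data with peaks placed in advance. That test checks the code alone and does not show how the calls behave at unequal depth. Stages were compared over libraries with the exact 2-sided permutation test, 3 against 4. The p-values measure the spread between these libraries, which differ in preparation on day 2. PSME3 and H3K4me3 were not tested against each other.

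The genes, the lists and the tests were chosen with earlier results of these data known. Values in every list are given for gained genes, up to 12 wider ones, narrower ones, those with PSME3 and the myosin heavy chains of chromosome 11. The promoters printed are those of the 4 gained or wider genes with the largest change among those with a RefSeq start site. The alternatives were the gene span alone, 5 kb around it, 1 kb around the start site, a q-value of at most 0.01, as many peaks as in the shortest list, the frozen native list alone, the pooled cycling list, scaling by the list median, the widest peak, and each library left out.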

Additional observations from a re-analysis of the deposited data

How the results depend on the processing

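Of the 23 wider genes, 15 kept that call in each alternative run on them (Tnnt3, Myom2 and Lmod3, without a RefSeq start site, were not run within 1 kb of it): Acta1, Myh3, Myl1, Tnnt1, Tnnt3, Tnnc1, Ttn, Myom2, Myom3, Casq2, Atp2a1, Smyd1, Unc45b, Klhl41 and Lmod3. The count of wider genes ranged from 21 to 28 of the 49, and was 20 of the 41 with a start site within 1 kb of it. The number narrower, 1 as reported, was 2 with 5 kb around the span, with the frozen native list alone and with the widest peak, 5 with the pooled cycling list, and 0 when only peaks at a q-value up to 0.01 counted, with as many peaks as in the shortest list and with scaling by the list median. It was 1 to 5 with 1 library left out, and 5 without cycling replicate 1. The shares of protein-coding genes called wider or narrower also moved between settings. The shares given above for the frozen native list alone, for scaling and without cycling replicate 1 show this. The counts of wider and narrower genes are therefore not a measure of stability by themselves. The number gained, 11 as reported, was 9 with 5 kb around the span, 20 with as many peaks as in the shortest list (0.292% of protein-coding genes) and 11 to 17 with 1 library left out, with 17 without cycling replicate 2. The median change was 522.0 bp with the pooled cycling list and 1400.0 bp after scaling. The genes with PSME3, 6 as reported, were 2 of 41 within 1 kb of the start site (18.2% of protein-coding genes), 5 at a q-value up to 0.01 (12.8%), 3 with pooled peaks found in at least 2 replicates (3.96% of protein-coding genes), and 3 to 5 when 1 replicate was left out and the pooled peak had to be in another, with 3 without replicate 3 (5.87% of protein-coding genes). The change reversed for Myl4, to -154.1 bp within 1 kb of the start site and -209.2 bp for the widest peak, and for Tpm1, to 946.3 bp after scaling. The cause was not tested in these cases. No paired analysis was possible because the labels give the day 2 libraries no replicate number that ties them to a cycling culture, and PSME3 and H3K4me3 were not tested against each other.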
